A study of Mus musculus with 6 samples.

Results

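The genes described here are 47 genes of hereditary hearing loss whose products are not ion channels or transporters but belong to the sensory hair cell, the extracellular matrices of the cochlea, the cytoskeleton, or to enzymes, growth factors and regulators. They were chosen by name, and every probe set whose platform gene symbol is one of these names was taken, which gave 71 of 45037 probe sets for 40 of the 47 genes. Ush1g, Grxcr1, Loxhd1, Lrtomt, Ptprq, Slc17a8 and Cib2 had no probe set under their symbol and were not analysed here. RNA of microdissected stria vascularis, the secretory epithelium of the cochlear lateral wall, came from adult Slc26a4+/+ mice and from adult Slc26a4-/- mice, which lack the anion exchanger pendrin in every cell. There were 3 Affymetrix mouse gene chips (arrays) per genotype, each with amplified RNA pooled from 2 animals, so that 6 mice of each genotype were measured. The mice were not perfused, so RNA of blood in the capillaries could be part of each sample. The 2 genotypes were bred from the same source colony, and neither the labels nor the methods name the strain.

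Hearing depends on mechanosensitive hair cells, whose bundle of actin-filled stereocilia is moved against the tectorial membrane, an extracellular gel, and on the lateral wall, which supplies the endolymph with K+ and with a positive potential. Genes of hereditary hearing loss act in one or more of these places. Many are named for the hair cell but are also active elsewhere in the body, among them radixin, whirlin and the myosins of the cytoskeleton. Stria vascularis itself has no hair cells, and the adjoining spiral ligament holds fibrocytes that make the matrix proteins cochlin and otospiralin.

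The authors deposited 1 signal per probe set and array, a scaled intensity on a linear scale, and the values below are these signals. The mean signal lay between 666 and 725 on the 6 arrays. A probe set was called above background on an array when it exceeded the 95th percentile of that array's 44 olfactory receptor probe sets, a family of genes with no known part in this tissue. This background lay between 187 and 319, and 35.7 to 43.3% of all probe sets exceeded it. Slc26a4 itself had signals of 793 to 1354 in Slc26a4+/+ and 520 to 717 in Slc26a4-/-. It is unknown whether its probe set reads the deleted exons, so the labels could not be checked with it. The arrays differed in measures of RNA quality and sex. The ratio of 3′ to 5′ signal of Gapdh, which rises as RNA is degraded, was 2.25 to 10.5 in Slc26a4+/+ and 3.34 to 3.80 in Slc26a4-/-. The pools of Slc26a4-/- had Xist signals of 5530 to 5863 and Eif2s3y signals of 3.1 to 3.6, against 771 to 3358 and 640 to 1541 in Slc26a4+/+, so sex and genotype cannot be told apart. Markers of hair cells were near background. None of the 9 genes measured of 11 listed exceeded it on 2 arrays of a genotype, and Pou4f3, a transcription factor of hair cells, had signals of 3.3 to 47.3.

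Of the 40 genes with a probe set, 21 were above background on at least 2 arrays of a genotype. These genes hold 32 such probe sets, 45.1% of the 71, against 43.6% of all probe sets tested. In 17 of the 21 genes a probe set was above background on all 6 arrays. They were Coch and Otos of the matrix, Myo6, Triobp, Rdx and Tprn of the hair bundle, Whrn, Tmie, Homer2, the cytoskeletal genes Actg1, Myh9, Myh14 and Diaph1, and Serpinb6a, Wfs1, Grhl2 and Ccdc50. Otof, Tmprss3, Msrb3 and Hgf were above it on fewer arrays. The 3 signals of a genotype are given in the order of the replicate numbers throughout. Otof, the calcium sensor of transmitter release in hair cells, was just inside the rule, with 183, 274 and 236 across Slc26a4+/+ and 198, 262 and 183 across Slc26a4-/-, above background on 1 and 2 arrays. Otog, the gene of otogelin, was just outside it, with 215, 214 and 259.6 across Slc26a4+/+ and 119, 144 and 224 across Slc26a4-/-, above background on 1 array of each genotype. By the paper's own detection calls for these arrays, Otof and Otog were present on none of them. Otoa, the gene of otoancorin, exceeded background on 1 Slc26a4-/- array with 223. The remaining 17 genes were not above background on any array.

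**Figure D1:**
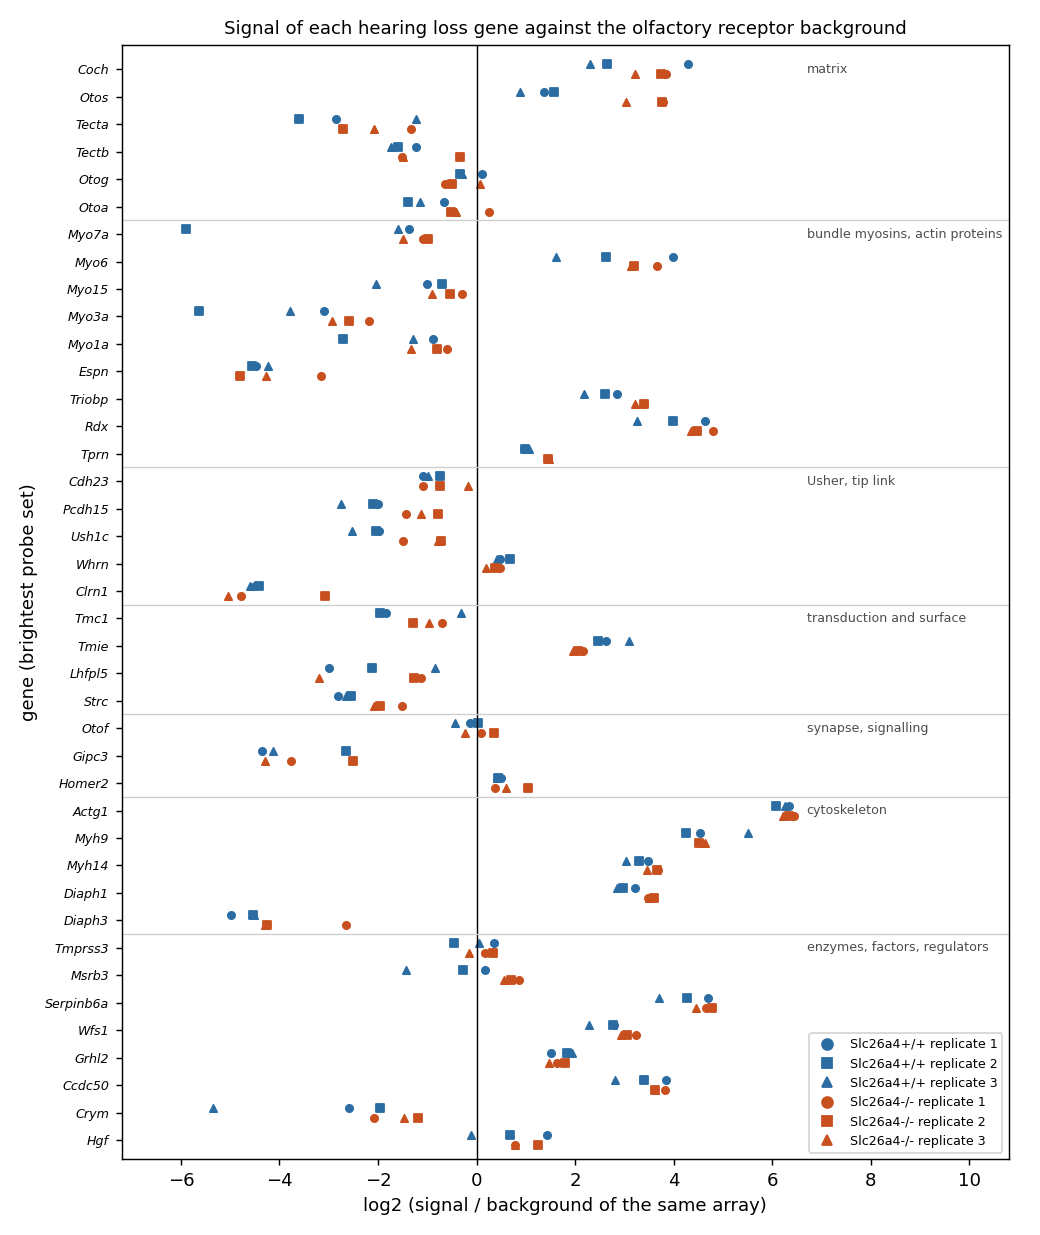
Log2 ratio of the signal to the background of the same array, for the brightest probe set of each of the 40 genes, grouped by role. Points are single arrays, blue for Slc26a4+/+ and orange for Slc26a4-/-, with a symbol for each replicate number. Genes to the right of the line at 0 exceeded background, as Actg1 and Rdx did on all 6 arrays, and Tecta, Espn and Clrn1 lay to the left of it on every array.

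Log2 signals were compared between the genotypes by limma, whose estimate of the spread followed the signal level (the trend), with Benjamini-Hochberg adjustment over all probe sets and a threshold of 0.05. One of the 71 probe sets, for Otos, was higher in Slc26a4-/-, which is 1.41% of them against 1.19% of all probe sets. Another one, for Hgf, was lower, again 1.41%, against 0.540% of all. At an unadjusted p under 0.05, 4 of the 71 were higher and 6 lower, 5.63 and 8.45%, against 6.15 and 5.77% of all. Every Slc26a4-/- array lay above every Slc26a4+/+ array in 7 probe sets, 9.86% against 8.46% of all, and below in 8, 11.3% against 9.40%. The median log2 fold change was 0.03, against -0.06 over all probe sets. These shares were near the background or rest on 1 probe set. In bulk tissue fewer cells of a type and less RNA per cell cannot be told apart, and this holds for each difference below.

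**Figure D2:**
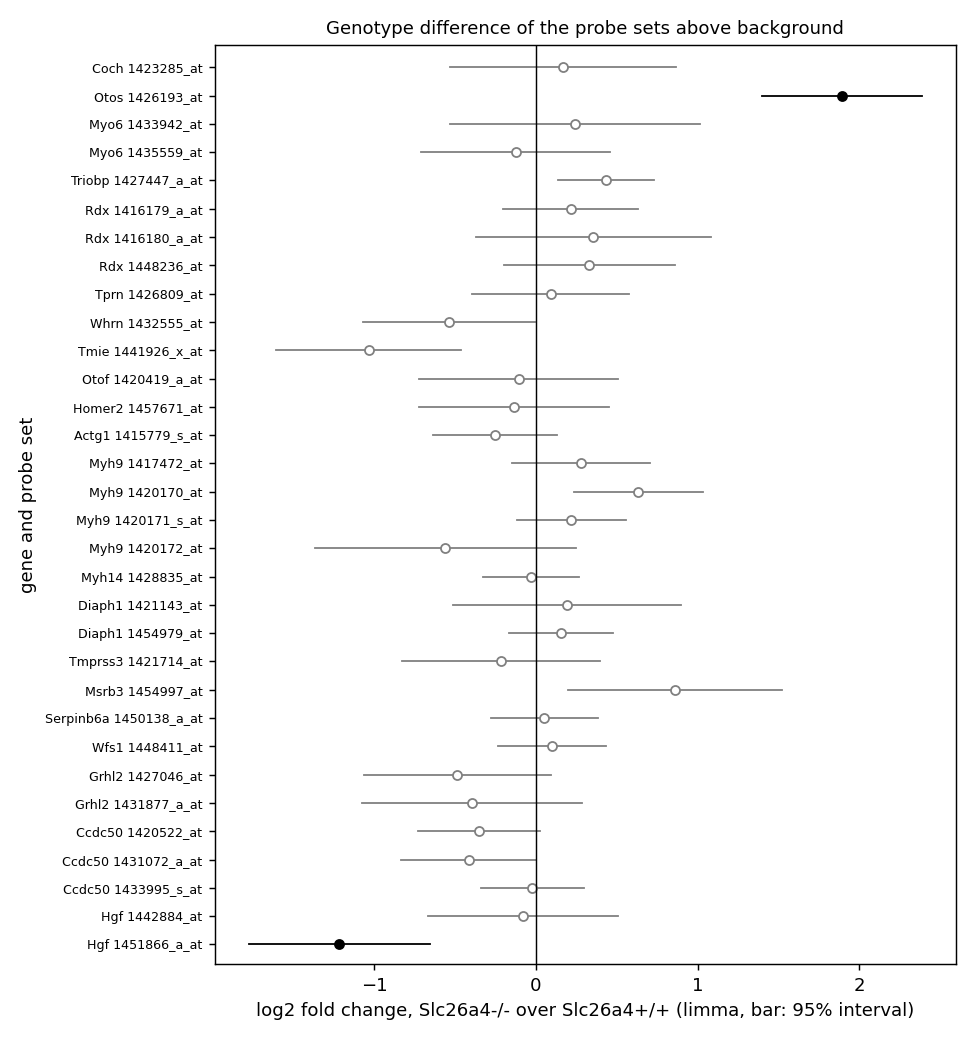
Log2 fold change of Slc26a4-/- over Slc26a4+/+ with its 95% confidence interval from limma, for the 32 probe sets above background on at least 2 arrays of a genotype. Filled points are Otos, at 1.89, and Hgf, at -1.22, which passed an adjusted p of 0.05, and open points are the others.

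The sequences before the annotated start of Otos and Hgf are shown because these were the 2 genes that passed, and that of Coch because cochlin and otospiralin are both products of fibrocytes. Each holds the bases from 250 to 61 before a transcript start that RefSeq annotates for the gene, build GRCm38.p6, read 5′ to 3′ on the strand of the gene. Other annotated transcripts of Otos and Coch start closer to the window, and no printed base lies within the annotated span of a gene. Positions are chr1:92648902-92649091 on the minus strand for Otos, chr5:16553245-16553434 on the plus strand for Hgf and chr12:51593091-51593280 on the plus strand for Coch. Capitals mark every match, on both strands, to CANNTG (an E box), GGGCGG (a GC box) or CCAAT.
Otos: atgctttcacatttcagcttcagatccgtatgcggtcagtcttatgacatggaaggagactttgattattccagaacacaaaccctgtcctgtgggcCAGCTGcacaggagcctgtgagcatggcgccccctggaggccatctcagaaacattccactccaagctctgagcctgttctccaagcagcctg
Hgf: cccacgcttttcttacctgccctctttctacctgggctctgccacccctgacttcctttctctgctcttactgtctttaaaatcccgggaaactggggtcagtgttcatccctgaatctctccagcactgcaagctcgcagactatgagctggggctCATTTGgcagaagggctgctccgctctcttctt
Coch: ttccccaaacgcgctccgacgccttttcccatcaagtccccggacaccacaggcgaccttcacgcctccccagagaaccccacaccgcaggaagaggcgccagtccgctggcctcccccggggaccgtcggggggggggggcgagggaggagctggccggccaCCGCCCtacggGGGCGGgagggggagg
Otos held 1 CANNTG and Hgf held 1 CANNTG, and neither held the other motifs. Coch held 2 GGGCGG and none of the other 2. Over 32851 annotated starts, 57.3% held CANNTG, 22.8% GGGCGG and 26.7% CCAAT in the same 190 bases. These letters are a description of the window and not of a bound site.

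In the matrix group, Otos was the 1 of 6 probe sets that passed. Otos encodes otospiralin, a small protein secreted by fibrocytes of the lateral wall. Probe set 1426193_at had signals of 518, 804 and 585 across Slc26a4+/+ and 2583, 2769.8 and 1751 across Slc26a4-/-. Every Slc26a4-/- array lay above every Slc26a4+/+ array, and all 6 were above background. The geometric mean in Slc26a4-/- was 3.72-fold that in Slc26a4+/+ (log2 fold change 1.89, SE 0.22, limma adjusted p = 0.00276). Otos passed without each array in turn, with log2 fold changes of 1.76 to 2.10. It did not pass with Xist as a covariate (log2 fold change 1.33, limma adjusted p = 0.406) or without the trend (limma adjusted p = 0.102). Some other genes of fibrocytes were higher as well. Of 12 listed fibrocyte genes without Coch and Otos, all above background, 6 were higher by limma (Chad, Ucma, Car3, Tgfbi, Dcn and Col9a2), with 9 of 23 probe sets higher and 0 lower (1 lower at an unadjusted p under 0.05), and the other 6 genes did not pass. The summed signal of the 12 genes was 19874.5 to 23688 in Slc26a4+/+ and 27533 to 27766 in Slc26a4-/-. Its largest part was Car3 1449434_at, at 11993.5 to 12837 and 15333 to 16190, which did not pass (limma adjusted p = 0.363). The paper counts Otos among genes of spiral ligament not expected in stria vascularis. From these same arrays it already lists Otos as present in both genotypes and higher in Slc26a4-/-. It reads its RT-PCR, done on perfused mice, as a small contamination between these tissues, larger in Slc26a4-/- than in Slc26a4+/- mice. The parts of carried-over ligament and of the fibrocyte genes in the Otos difference were not tested.

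Coch, the gene of cochlin, an abundant matrix protein of the inner ear, did not pass. Probe set 1423285_at had signals of 3924, 1684 and 1565 across Slc26a4+/+ and 2694.5, 2743 and 1983 across Slc26a4-/-. The highest and the lowest of the 6 arrays were both Slc26a4+/+, so the groups overlapped. The log2 fold change was 0.17 with a 95% confidence interval from -0.53 to 0.87 (limma adjusted p = 0.885). The other 4 matrix genes gave little signal. Tecta and Tectb, the genes of the tectorins of the tectorial membrane, were below background on all 6 arrays with 22.1 to 135.5 and 65.9 to 162. Otog had a log2 fold change of -0.54 (SE 0.31, limma adjusted p = 0.555), with 2 of its 6 signals above background. Otoa had signals of 103 to 143 in Slc26a4+/+ and 143 to 223 in Slc26a4-/-, which overlapped by less than 1 unit.

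Of the 10 genes for motors and actin proteins of the hair bundle, 9 had a probe set and 4 were above background. None of the 13 probe sets passed by limma, and 1 was higher and 0 lower at an unadjusted p under 0.05. The median log2 fold change was 0.31, over probe sets of which 7 were above background. Triobp, which bundles actin in the rootlets of stereocilia and is also widely expressed, came closest. Probe set 1427447_a_at had signals of 1433, 1637 and 1448 across Slc26a4+/+ and 1962, 2148 and 1989.7 across Slc26a4-/-. All Slc26a4-/- arrays were above all Slc26a4+/+ arrays, and the difference, 1.35-fold between geometric means, did not pass (log2 fold change 0.43, SE 0.13, limma adjusted p = 0.188).

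Rdx, the gene of radixin, which ties actin to the membrane, was above background on all 6 arrays with each of its 3 probe sets. Probe set 1416179_a_at had 4988, 4295 and 3046 across Slc26a4+/+ and 5197, 4504 and 4352 across Slc26a4-/-. The groups overlapped, and the log2 fold changes of the 3 probe sets were 0.21 to 0.35. Myo6, the gene of the myosin that moves toward the minus end of actin and anchors stereocilia, had 3168, 1654 and 973.5 on probe set 1433942_at across Slc26a4+/+ and 2384, 1878 and 1886.5 across Slc26a4-/-. The Slc26a4+/+ arrays of Myo6 enclosed the Slc26a4-/- ones (log2 fold change 0.24, limma adjusted p = 0.844), and its second bright probe set, 1435559_at, had -0.13. Tprn, the gene of taperin at the base of stereocilia, had signals of 389.7 to 665 in Slc26a4+/+ and 509 to 589.5 in Slc26a4-/-, with a log2 fold change of 0.09.

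Apart from Myo6, the myosins of this group were not detected. Myo7a, Myo15, Myo3a and Myo1a were below background on all 6 arrays, and so was Espn, the gene of the actin bundling protein espin, at 7.3 to 21. Myo3a had 23.5, 5.4 and 23 across Slc26a4+/+ and 41.2, 33.8 and 27.9 across Slc26a4-/-. These groups did not overlap, but every value was under background, so no fold is given (limma adjusted p = 0.566). Myo7a had 4.5 on Slc26a4+/+ replicate 2 and 76 to 106 on the other arrays.

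Usher syndrome joins hearing loss with loss of vision, and some of its genes encode the tip link and its anchors. Of the 7 genes of this group 5 had a probe set, and 1, Whrn, was above background. None of the 11 probe sets passed by limma, with 0 higher and 1 lower at an unadjusted p under 0.05, and 10 of them were below background on every array. Whrn encodes whirlin, a scaffold of the stereocilia tip. Its probe set 1432555_at had signals of 279, 429.7 and 426 across Slc26a4+/+ and 261, 263.5 and 243 across Slc26a4-/-. All 6 were above background and the Slc26a4-/- arrays were below all Slc26a4+/+ arrays, by a narrow gap to Slc26a4+/+ replicate 1. The log2 fold change was -0.54 (SE 0.24, limma adjusted p = 0.412), and the other 3 probe sets of Whrn were below background on all arrays.

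Cdh23 and Pcdh15, the cadherins of the tip link, Ush1c, the gene of its anchor harmonin, and Clrn1, the gene of clarin-1, were below background on every array. The brightest probe set of Pcdh15, 1421503_at, had 50, 62.9 and 47.4 across Slc26a4+/+ and 69.7, 118.5 and 98.4 across Slc26a4-/-. Ush1c had 50.4 to 65.9 and 66.3 to 124. In both genes the Slc26a4-/- signals lay above the Slc26a4+/+ ones, all under background (limma adjusted p = 0.535 for Pcdh15 and 0.537 for Ush1c).

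Among the 7 genes of the transduction channel and the hair cell surface, 4 had a probe set and Tmie was the 1 above background. None of the 8 probe sets passed by limma, with 0 higher and 2 lower at an unadjusted p under 0.05, both of them for Tmie. Tmie encodes a small membrane protein of the transduction complex. Its probe set 1441926_x_at had signals of 1239, 1493 and 2737 across Slc26a4+/+ and 832, 849 and 831 across Slc26a4-/-. The Slc26a4-/- arrays lay within 1.02-fold of each other and below all Slc26a4+/+ arrays. The log2 fold change was -1.04 (SE 0.26, limma adjusted p = 0.0919), and it passed without Slc26a4+/+ replicate 1 (-1.27, limma adjusted p = 0.0259) or without Slc26a4+/+ replicate 3 (-0.70, limma adjusted p = 0.0464). It passed in no other setting. The limma adjusted p was 0.182 without Slc26a4+/+ replicate 2 and 0.258 to 0.300 on leaving out any single Slc26a4-/- array. It was 0.377 without the trend and 0.765 with Xist as a covariate.

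A second probe set of Tmie, 1443964_at, had 316, 233 and 251 across Slc26a4+/+ and 229, 29.3 and 95.8 across Slc26a4-/-. Its groups were apart in the same direction, but 1 array of each genotype was above background (log2 fold change -1.62, SE 0.62, limma adjusted p = 0.333). It was -0.84 without Slc26a4-/- replicate 2 and -2.32 without Slc26a4-/- replicate 1. The third, 1439838_a_at, was below background on all arrays and its groups overlapped. The bright probe set carries the suffix that Affymetrix gives to probe sets which may also bind similar sequences, so its signal may not be from Tmie alone. Markers of marginal cells, the epithelial cells that face the endolymph, were lower in part. Of 8 marginal cell genes measured, all above background, 4 of 15 probe sets were lower and 0 higher by limma. The 4 were 26.7%, against 0.540% of all probe sets. At an unadjusted p under 0.05, 11 were lower and 0 higher, and the 11 were 73.3%, against 5.77% of all. The summed signal of the 8 genes was 58737 to 78079 in Slc26a4+/+ and 47529 to 49483 in Slc26a4-/-. The largest part of this sum was Slc12a2 1417622_at, at 19124 to 28351 and 17031 to 18081, which did not pass (limma adjusted p = 0.365). The part of the marginal cell genes in the Tmie values was not tested. Tmc1, a pore subunit of the transduction channel, Lhfpl5, its partner, and Strc, the gene of stereocilin, were below background on all 6 arrays.

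**Figure D3:**
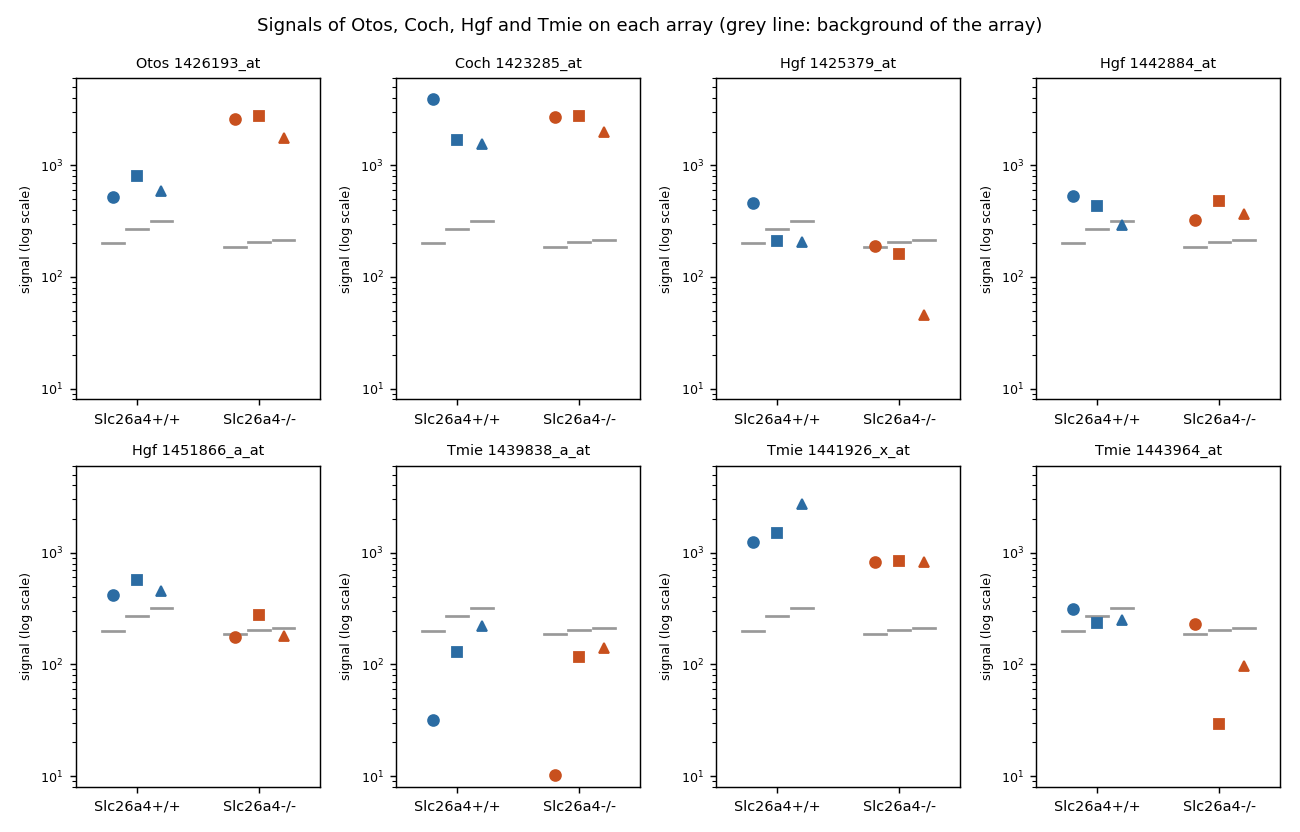
Signals of the single probe sets of Otos and Coch and of the 3 probe sets each of Hgf and Tmie on every array, on a log axis. Points are arrays, with a symbol for each replicate number, and grey lines give the background of the same array. The genotypes are apart for Otos, for 2 probe sets of Hgf and for 2 of Tmie, and overlap for Coch.

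The synapse and signalling group had 3 of 4 genes measured. None of the 5 probe sets passed by limma (0 at an unadjusted p under 0.05), and their log2 fold changes ran from -0.67 to -0.11. Otof had a log2 fold change of -0.11 with a 95% confidence interval from -0.72 to 0.51. Homer2, a scaffold of signalling complexes, had signals of 281, 367 and 428 on probe set 1457671_at across Slc26a4+/+ and 244, 419.7 and 324 across Slc26a4-/-, all above background. The groups overlapped (log2 fold change -0.14, SE 0.26, limma adjusted p = 0.890). Its probe set 1424367_a_at had 160.1, 268 and 303 across Slc26a4+/+ and 221, 124.5 and 117 across Slc26a4-/-, of which 1 was above background (log2 fold change -0.67, SE 0.36, limma adjusted p = 0.528). Gipc3, a scaffold gene of hair cells and neurons, had signals of 9.8 to 43.1 and was below background throughout.

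Of the 11 probe sets for widely expressed cytoskeletal genes 8 were above background, and they cover 4 of the 5 genes. None of the 11 passed by limma, with 1 higher and 0 lower at an unadjusted p under 0.05. Myh9 encodes a heavy chain of non-muscle myosin, and its probe sets did not move together. Probe set 1420170_at had signals of 544, 746.5 and 629.9 across Slc26a4+/+ and 1065, 844 and 1064 across Slc26a4-/-, with all Slc26a4-/- arrays above all Slc26a4+/+ arrays (log2 fold change 0.63, SE 0.18, limma adjusted p = 0.147). The brightest, 1420172_at, had 4637, 5097 and 14440.5 across Slc26a4+/+ and 4321, 4641 and 5306 across Slc26a4-/-. Here Slc26a4+/+ replicate 3 stood apart from the other 5 arrays, and the log2 fold change was -0.56 (SE 0.36, limma adjusted p = 0.608).

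Actg1, the gene of gamma-actin, had signals of 16293, 18245 and 24463 across Slc26a4+/+ and 16295, 16603 and 15822 across Slc26a4-/-. The groups overlapped, with a log2 fold change of -0.25 and a 95% confidence interval from -0.64 to 0.13. Its probe set carries the suffix for probes shared by several transcripts, which may include RNA of other actin genes. Myh14, a second non-muscle myosin chain, had 2238 to 2656 in Slc26a4+/+ and 2360.5 to 2583 in Slc26a4-/-, and its log2 fold change of -0.03 had an interval from -0.33 to 0.27. Diaph1, a formin that elongates actin filaments, had 0.16 with an interval from -0.17 to 0.48 on its bright probe set. Diaph3, a second formin, was below background on all arrays at 6.3 to 29.8.

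The last group joins enzymes, growth factors and regulators. Of its 8 genes 7 were above background and Crym, which binds thyroid hormone, was not. Hgf was the 1 of 17 probe sets that passed, downward, and 1 was higher and 3 were lower at an unadjusted p under 0.05. The median log2 fold change was -0.22, over probe sets of which 11 were above background. Hgf encodes hepatocyte growth factor, the secreted ligand of the receptor tyrosine kinase Met, and changes in its amount in either direction cause hearing loss in mice.

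Hgf probe set 1451866_a_at had signals of 420.5, 565 and 456 across Slc26a4+/+ and 176, 276 and 178 across Slc26a4-/-. All 3 Slc26a4+/+ arrays were above background and above every Slc26a4-/- array, of which 1 exceeded background. The log2 fold change was -1.22 (SE 0.25, limma adjusted p = 0.0449). The size of this difference is uncertain, since 2 of the 3 Slc26a4-/- signals were not above background. The call was near the threshold. It was lost without Slc26a4+/+ replicate 2 or 3 and on leaving out any single Slc26a4-/- array, with limma adjusted p of 0.0614 to 0.220, with each array centred on its median (log2 fold change -1.14, limma adjusted p = 0.112), by quantile normalization (0.0554), without the trend (0.209) and with Xist as a covariate (0.425).

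The 3 probe sets of Hgf did not give 1 picture. Probe set 1425379_at had 461, 212 and 206 across Slc26a4+/+ and 190.5, 159.6 and 45.5 across Slc26a4-/-. Its groups were apart in the same direction, with 1 array of each genotype above background (log2 fold change -1.29, SE 0.55, limma adjusted p = 0.390). The brightest, 1442884_at, had 535, 432 and 293 across Slc26a4+/+ and 322, 483.5 and 367 across Slc26a4-/-, which overlapped, with a log2 fold change of -0.08 and a 95% confidence interval from -0.67 to 0.51. No source used here says which transcripts of Hgf each probe set reads. Met, its receptor and also a gene of hearing loss, had signals of 8207 to 8973.5 in Slc26a4+/+ and 8444 to 9552 in Slc26a4-/-, with a log2 fold change of 0.06 (limma adjusted p = 0.912). Macrophage genes differed strongly between these samples, with 11 of 22 probe sets of 12 genes higher and 0 lower by limma (0 lower at an unadjusted p under 0.05) and a summed signal of 6265 to 8338 in Slc26a4+/+ and 36861 to 38187 in Slc26a4-/-. Of these 12 genes 1 was never above background, and their part in the Hgf values was not tested.

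Msrb3 encodes an enzyme that repairs oxidised methionine. Probe set 1454997_at had 225, 222 and 118 across Slc26a4+/+ and 338, 332 and 314 across Slc26a4-/-, with the genotypes apart. It exceeded background on 1 Slc26a4+/+ and on all 3 Slc26a4-/- arrays, and the log2 fold change of 0.86 did not pass (SE 0.30, limma adjusted p = 0.259). Grhl2, a transcription factor of epithelial cells, had 571, 961 and 1221 on probe set 1427046_at across Slc26a4+/+ and 584, 708 and 589.5 across Slc26a4-/-. The groups overlapped through Slc26a4+/+ replicate 1, and the log2 fold change was -0.49 (SE 0.26, limma adjusted p = 0.517). Its probe set 1452643_at had 29.8, 71.8 and 152 across Slc26a4+/+ and 6.5, 17.7 and 20.1 across Slc26a4-/-, groups that did not overlap but lay below background on all arrays (limma adjusted p = 0.217).

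Ccdc50, a ubiquitin-binding protein gene, had 4 probe sets, of which 3 were above background on all arrays. On 2 of them the Slc26a4-/- arrays were below all Slc26a4+/+ arrays, with 459 to 575 against 623 to 680.2 and 448 to 493 against 516 to 729. Their log2 fold changes were -0.35 and -0.42 (limma adjusted p = 0.461 and 0.422), and the brightest, 1433995_s_at, had -0.02. Wfs1, the gene of wolframin of the endoplasmic reticulum, had 1373 to 1844 in Slc26a4+/+ and 1629 to 1759 in Slc26a4-/-, with a log2 fold change of 0.10 and an interval from -0.23 to 0.43. Serpinb6a, a protease inhibitor gene, had 4139 to 5196 and 4692 to 5610.2, with 0.05 and an interval from -0.28 to 0.38. Tmprss3, a membrane serine protease gene, had 196 to 329.7 and 193 to 256, with -0.22 and an interval from -0.83 to 0.39.

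The Slc26a4+/+ arrays varied more among themselves than the Slc26a4-/- arrays did. Of the 26 probe sets above background on all 6 arrays, 23 (88.5%) had the larger SD of log2 signal in Slc26a4+/+, as did 80.6% of the 14199 such probe sets of the whole chip. The median SD was 0.34 across Slc26a4+/+ and 0.14 across Slc26a4-/-, against 0.27 and 0.12 over the chip. In Slc26a4+/+ the highest signal exceeded the lowest by 3.25-fold for Myo6 1433942_at, 3.11-fold for Myh9 1420172_at, 2.51-fold for Coch and 2.21-fold for Tmie 1441926_x_at. In Slc26a4-/- these ratios were 1.27, 1.23, 1.38 and 1.02.

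The genes fell on both sides of this spread. In 8 of the 26 probe sets, among them those of Coch, Myo6 and Rdx, Slc26a4+/+ replicate 1 was highest and replicate 3 lowest. In 10, among them Tmie, Grhl2 and Actg1, replicate 3 was highest and replicate 1 lowest. These shares were 30.8 and 38.5%, against 25.3 and 29.7% over the chip. The same 2 arrays had the lowest and the highest ratio of 3′ to 5′ Gapdh, at 2.25 and 10.5, and the part of RNA quality in this spread was not tested.

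**Figure D4:**
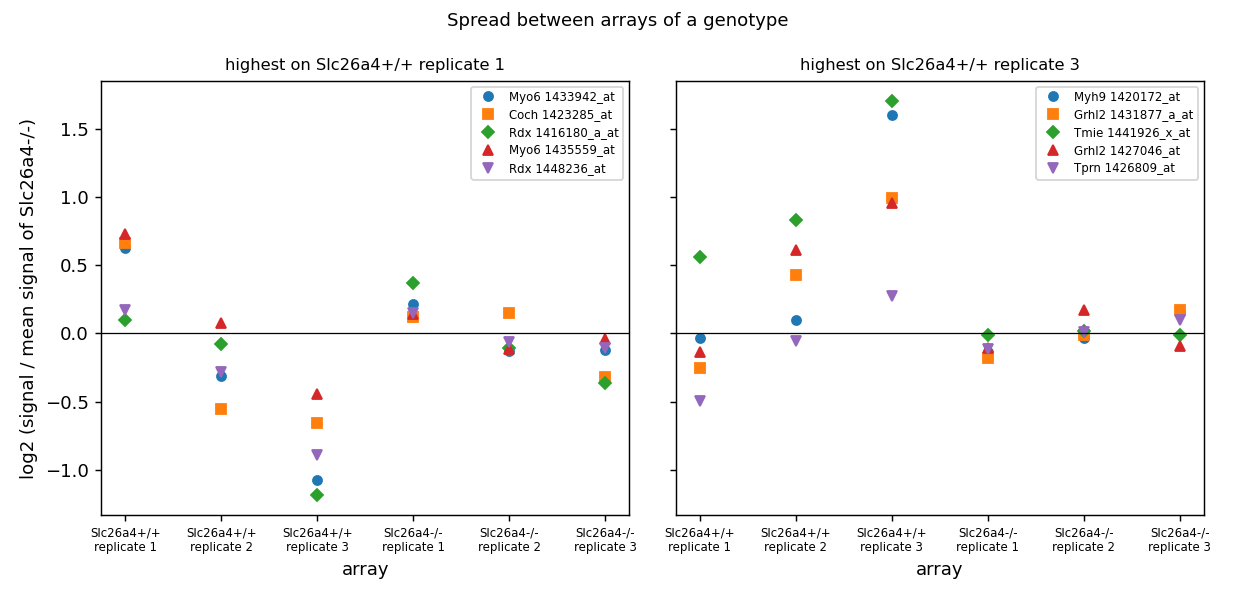
Log2 ratio of the signal to the mean signal of the 3 Slc26a4-/- arrays, for the 5 probe sets of largest ratio between Slc26a4+/+ arrays among those highest on replicate 1 and lowest on replicate 3 (left) or the reverse (right), all above background on all 6 arrays. Each symbol is a probe set on 1 array. The Slc26a4+/+ arrays spread by up to 3.25-fold for Myo6 and 3.11-fold for Myh9, and the Slc26a4-/- arrays lay closer together.

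Other hearing loss genes outside ion transport, from a further list of which 40 were measured, had 31 genes above background. Of their 88 probe sets 56.8% were above background on at least 2 arrays of a genotype, against 43.6% of all probe sets. By limma 3 were higher and 3 lower, 3.41% each, against 1.19 and 0.540% of all. Eps8, which caps and bundles actin in stereocilia, had 852.5, 745 and 707 on probe set 1422824_s_at across Slc26a4+/+ and 377, 313 and 285 across Slc26a4-/-. The groups were apart, and 2 of its 3 probe sets passed downward with log2 fold changes of -1.25 (limma adjusted p = 0.00969) and -1.22 (limma adjusted p = 0.0264). Tbc1d24, a gene of vesicle traffic, was lower on 1448028_at, with 1337, 1318 and 1233.5 against 821, 820.2 and 772 (log2 fold change -0.69, limma adjusted p = 0.0387, and 0.0585 with the replicate number as a block). Sema3e, the gene of a secreted guidance protein, was higher on 1442226_at, with 300.3, 148 and 262 against 688, 658 and 683 (log2 fold change 1.58, limma adjusted p = 0.0179), and also passed on 1419717_at. On 1419717_at Slc26a4+/+ was below background (limma adjusted p = 0.00829). With Slc26a4+/+ set to the background of its own arrays, Slc26a4-/- was at least 1.11-fold above Slc26a4+/+. Pax3, a transcription factor of the neural crest, was higher on 1 probe set (log2 fold change 0.86, limma adjusted p = 0.0434), while its brightest had 0.18 (limma adjusted p = 0.837). On another Pax3 probe set, 1430335_a_at, the groups were apart upward, but the difference did not pass (log2 fold change 0.71, limma adjusted p = 0.0902). Of these 6 calls 0 remained with Xist as a covariate or by the methods' paired t-test, 1 without the trend, 2 with median centring and 0 to 6 with 1 array left out (0 without Slc26a4-/- replicate 2 or 3, 1 without Slc26a4-/- replicate 1 and 3 without Slc26a4+/+ replicate 2).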

How the data were processed

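RNA of stria vascularis was measured on 6 Affymetrix mouse 430 2.0 arrays. The deposited intensity of each probe set is a linear signal that the authors made with GCOS, which scales every array. No source used here gives the version of GCOS or its scaling target. The repeated amplification starts from the 3′ end, so signals also follow RNA quality. The labels gave genotype and replicate, and the methods gave age and pooling.

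Of 45101 probe sets, 64 controls were left out. The platform annotation gave 34945 of the others 1 gene symbol, 932 several and 9160 none. Signals under 1 (172 values) were set to 1. Log2 signals of 45037 probe sets were fitted as deposited, with no added scaling, in limma 3.58.1 under R 4.3.3 (lmFit, then eBayes with trend), two-sided, with Benjamini-Hochberg adjustment over all of them and a threshold of 0.05. The fit was first tested on simulated data. The arrays limit precision to 3 pools per genotype.

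The genes, role lists and marker lists were chosen with earlier results of these data known. Full values are given for probe sets past the threshold, for the brightest probe set of the same gene and for the 2 smallest p-values of each role list. Outside this rule, Coch, Otof, Rdx, Myo6 and Actg1 are also given in full, and the remaining genes by range. Values of Eps8, Tbc1d24, Sema3e, Pax3, Met, and of members with groups that did not overlap, were chosen after they were seen. Deviations from the genotype means were correlated between arrays over probe sets with a mean signal of at least 300. Arrays of the same number gave 0.28, 0.21 and 0.14, and arrays of different numbers gave -0.26 to 0.12. Neither the labels nor the methods say which arrays form pairs. The main fit was unpaired, and the numbers paired the arrays only in the replicate block and the paired t-test.

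Alternatives were median centring, quantile normalization, a pseudocount of 16, no trend, a minimum mean signal of 300, the replicate number as a block, the Xist signal as a covariate, the methods' paired t-test, other backgrounds and leaving out each array. The methods name the paired t-test under statistics and for the RT-PCR. They judged the arrays by averaged ratios, so its use on arrays was a choice made here. The Gapdh ratio as a covariate was chosen after seeing the data. The quantitative RT-PCR, microscopy and Western blots of the study were not analysed here.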

Additional observations from a re-analysis of the deposited data

How the results depend on the processing

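The count of 1 probe set higher in Slc26a4-/- (Otos) was 0 when the trend was dropped from limma, when Xist was a covariate and by the methods' paired t-test, and stayed 1 without each array in turn. At an unadjusted p under 0.05 these 3 settings gave 5, 4 and 3 higher. The count of 1 lower (Hgf) was 0 with median centring, with quantile normalization, without the trend, with the Xist or the Gapdh covariate and by the methods' paired t-test, which gave 3, 7, 3, 1, 7 and 2 lower at an unadjusted p under 0.05. It was 0 to 3 with 1 array left out. Without Slc26a4+/+ replicate 1 the 3 were for Hgf, Tmie and Grhl2, and without Slc26a4+/+ replicate 3 the 1 was for Tmie. The fit with the replicate block, which pairs arrays of the same number, gave 1 higher and 1 lower, as before. Alternatives were followed for the 14 member probe sets that passed or had the 2 smallest p-values of a role list. The block changed the call of none of these 14 (Otos log2 fold change 1.89, limma adjusted p = 0.00147, and Hgf -1.22, limma adjusted p = 0.0300). Over all probe sets 535 were higher and 243 lower, against 93 and 21 without the trend, 27 and 0 with Xist as a covariate and 0 and 0 by the paired t-test, so these settings leave few calls anywhere. Median centring gave 359 and 89 and moved the median log2 fold change from -0.06 to 0.02. Homer2 1457671_at had a log2 fold change of -0.14, which turned to 0.028 with the Gapdh covariate and to 0.062 without Slc26a4-/- replicate 1, and ran from -0.33 to 0.062 with 1 array left out. The 21 genes above background were 19 to 21 under the other backgrounds and 20 to 21 with 1 array left out. With 3 pools per genotype, the intervals of the probe sets that did not pass leave room for differences of the size printed with them, and the Xist covariate follows the genotype closely, since its signals in the 2 genotypes do not overlap.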
